A study of Mus musculus with 4 samples.

Results

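The genes of fatty acid, triglyceride and cholesterol synthesis were examined in the perivascular adipose tissue (PVAT) of the mouse femoral artery after wire injury. A list of 40 symbols was matched to the rows of the deposited table, and 36 genes were found among 12661, with 20 of 21 fatty acid and triglyceride symbols and 16 of 19 sterol symbols. *Sc4mol* and *Msmo1* are the older and the current symbol of one gene, which the table lists as *Msmo1*. *Fads2*, *Hmgcs1* and *Idi1* were not analysed here. Bulk RNA-seq was made from the outer tissues around the artery, which the study describes as mainly PVAT. All mice were ovariectomized wild type C57BL/6 females, 11 weeks old, and the tissue was taken 48 h after surgery. The injury group (2 libraries) had a spring wire of 0.38 mm passed into the femoral artery, and the sham group (2 libraries) had the operation alone. Whether each library came from 1 mouse or from pooled tissue is not given in the sources used here, so the p-values measure only the spread between these libraries.

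Adipocytes build fatty acids from citrate or acetate by way of acetyl-CoA and malonyl-CoA, lengthen and desaturate them, and attach them to glycerol 3-phosphate to form triglyceride. Cholesterol comes from the same acetyl-CoA through mevalonate, squalene and lanosterol. The transcription factors SREBP-1 and ChREBP are known drivers of the fatty acid genes and SREBP-2 of the sterol genes. In brown and beige fat, synthesis and oxidation of fatty acids are known to run side by side. The comparison of injury with sham asks how the genes of these connected pathways stood in PVAT early after injury.

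The deposited values are signed decimals whose base and centre are not stated. They were treated as values on a log-like scale, and values and differences are given in deposited units and not as fold changes. Of the 36 genes, 20 were above 0 in all 4 libraries (11.7% of all genes), so 0 does not mark the mean of these libraries for each gene. Levels cannot be compared between genes, the read depth behind each value is unknown, and the number of libraries limits the precision. Injury was compared with sham by limma over all 12661 genes with Benjamini-Hochberg adjustment, and a gene was called at an adjusted p-value under 0.05.

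Of the 36 genes, 2 were called higher after injury and none lower. The called genes were *Elovl6*, the elongase that takes palmitate to stearate, and *Acacb*, acetyl-CoA carboxylase 2, which makes malonyl-CoA at the mitochondrial surface. Over all genes 7.43% were called, 3.76% higher and 3.67% lower, so the share of 5.56% among the lipid synthesis genes was close to the background. An unadjusted p-value under 0.05 from limma was reached by 12 of the 36 genes, 8 higher and 4 lower, against 29.5% of all genes. At a looser threshold of 0.1 on the adjusted p-value, 7 of the 36 passed (19.4%, against 18.3% of all genes). Both injury libraries lay above both sham libraries in 14 of the 36 genes (38.9%, against 31.6% of all genes) and below them in 6 (16.7%, against 30.3%). The median difference of the 36 genes was 0.15 deposited units, beside 0.01 for all genes. The fatty acid and triglyceride genes had a median of 0.29 and the sterol genes of 0.12. Without injury replicate 1 these medians were 0.0759 for the 36 genes, 0.0957 for the fatty acid and triglyceride genes and 0.00544 for the sterol genes. The difference was larger than the wider of both replicate gaps in 15 of the 36 genes (41.7%), and in 49% of all genes.

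**Figure D1:**
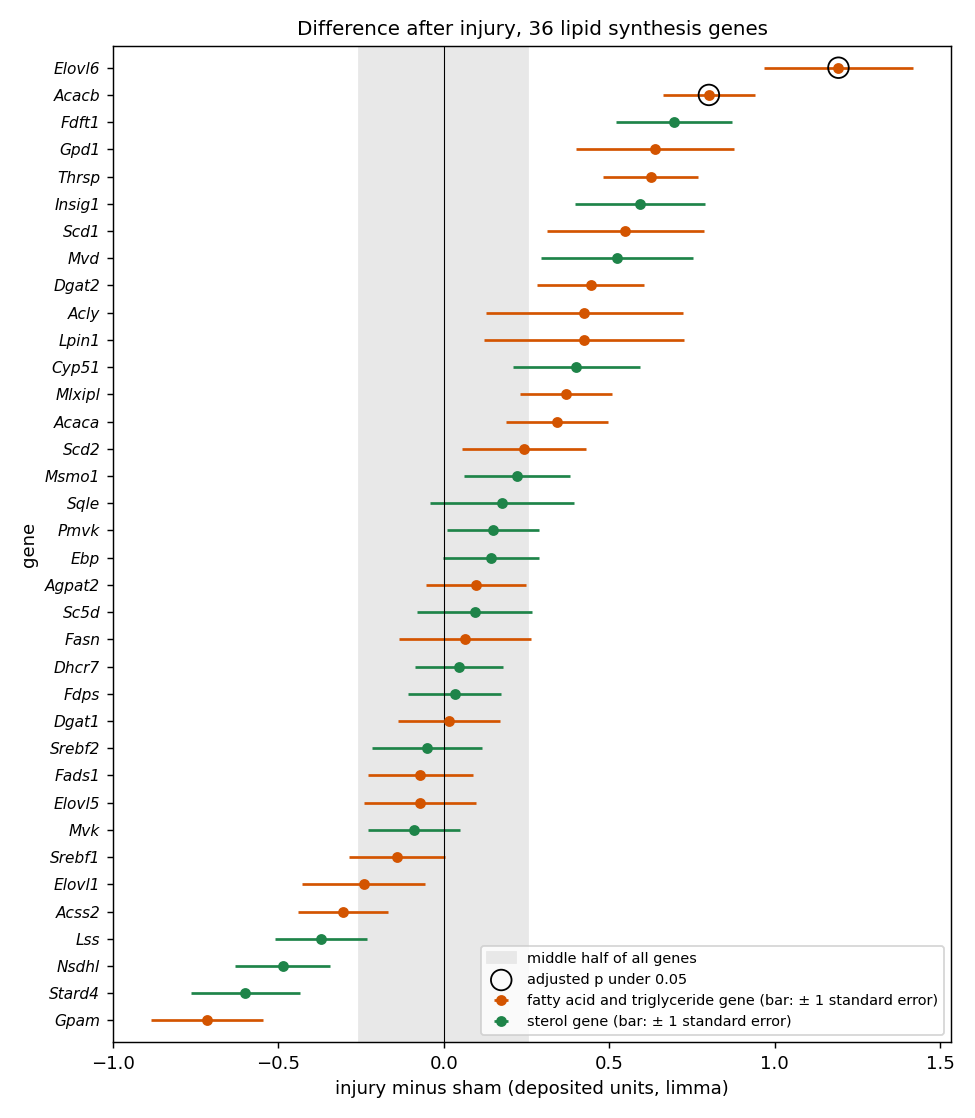
Injury minus sham for each of the 36 genes in deposited units, ordered by size, with bars of 1 standard error from limma and black rings on genes with an adjusted p-value under 0.05. *Elovl6* and *Acacb* carry the rings at 1.19 and 0.80, *Gpam* is lowest at -0.72, and genes of both pathways lie on both sides of the grey band, which spans the interquartile range of all genes (-0.26 to 0.25).

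Promoter windows are shown for the called genes and for a pair of sterol genes whose values lay on opposite sides of sham. They are RefSeq sequences of build GRCm38.p6, from 250 bases before to 50 after the start, given 5′ to 3′ on the gene's strand. Capitals mark the letters CCAAT on either strand, the core of the sites bound by NF-Y, a factor known to work beside SREBP.
Elovl6 (chr3:129532136-129532435, plus strand): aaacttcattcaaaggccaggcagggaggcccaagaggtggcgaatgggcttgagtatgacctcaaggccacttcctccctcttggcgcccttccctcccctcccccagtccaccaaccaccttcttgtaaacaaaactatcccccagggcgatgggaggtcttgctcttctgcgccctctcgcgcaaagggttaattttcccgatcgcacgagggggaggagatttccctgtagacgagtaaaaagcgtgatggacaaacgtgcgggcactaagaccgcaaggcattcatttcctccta
Acacb (chr5:114165268-114165567, plus strand): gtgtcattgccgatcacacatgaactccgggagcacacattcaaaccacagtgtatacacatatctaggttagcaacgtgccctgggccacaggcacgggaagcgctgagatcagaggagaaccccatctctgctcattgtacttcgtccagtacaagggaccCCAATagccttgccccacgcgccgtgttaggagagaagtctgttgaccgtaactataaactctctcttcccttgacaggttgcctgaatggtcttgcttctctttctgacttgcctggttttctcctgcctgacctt
Mvd (chr8:122443373-122443672, minus strand): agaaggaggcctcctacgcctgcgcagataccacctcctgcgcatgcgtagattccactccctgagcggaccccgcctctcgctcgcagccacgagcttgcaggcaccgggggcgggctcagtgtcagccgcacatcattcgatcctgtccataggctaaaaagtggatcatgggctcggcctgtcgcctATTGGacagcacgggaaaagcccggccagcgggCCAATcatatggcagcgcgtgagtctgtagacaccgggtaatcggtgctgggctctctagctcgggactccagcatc
Nsdhl (chrX:72918271-72918570, plus strand): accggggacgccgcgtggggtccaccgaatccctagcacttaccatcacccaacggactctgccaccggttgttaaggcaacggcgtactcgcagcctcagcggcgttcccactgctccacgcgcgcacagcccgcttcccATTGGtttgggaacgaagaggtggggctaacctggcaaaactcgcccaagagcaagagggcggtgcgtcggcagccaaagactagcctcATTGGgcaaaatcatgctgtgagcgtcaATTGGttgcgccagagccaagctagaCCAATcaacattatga

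The *Mvd* window holds 2 matches to CCAAT and the *Nsdhl* window 4. The *Acacb* window holds 1 match and the *Elovl6* window 0. A RefSeq window was found for 26 of the 36 genes, and where a gene had several windows a match in any of them was counted. CCAAT was present for 12 of 12 sterol genes and 10 of 14 fatty acid and triglyceride genes. The share was 41.1% of the 27025 genes with a window, which were not limited to the genes compared by limma here. The E-box CACGTG was found for 3 of the 12 and 2 of the 14 genes (8.09% of the 27025). The sterol regulatory element TCACNCCAC was found for none of the 12 and 1 of the 14, *Mlxipl* (1.44% of the 27025). These matches describe letters in short windows and not bound sites.

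The first steps supply carbon and build palmitate, and *Acacb*, whose product works at the mitochondrial surface, was grouped with them. The values are of RNA and do not measure fatty acid synthesis. *Acacb* (chromosome 5 of mm9, 114596544 to 114700770) was at 0.39 and 0.56 in the sham libraries and at 1.25 and 1.30 in the injury libraries. Both injury libraries stood well above both sham libraries, and the gap within each group was small beside the gap between them. The difference of 0.80 had a standard error of 0.14 and was called by limma (adjusted p = 0.0371). This call was lost without injury replicate 1 (adjusted p = 0.0775 from limma), where 284 of all 12661 genes were called. It was also lost without sham replicate 1 or sham replicate 2 (adjusted p = 0.229 and 0.133 from limma), where only 0 and 1 of all genes were called. The difference was 0.72 to 0.88 over the libraries left out. Quantile normalization of the 4 columns, with 1061 of all genes called, also ended it (adjusted p = 0.0638 from limma), and over all alternatives the adjusted p-value ran from 0.037 to 0.229. *Acaca*, which encodes the cytosolic carboxylase of the same reaction, was at 0.40 and 0.59 after sham operation and at 0.94 and 0.74 after injury, without overlap. Its difference of 0.34 did not pass (adjusted p = 0.209 from limma). For *Fasn*, the synthase that makes palmitate, the sham values of 0.79 and 1.23 enclosed the injury values of 1.20 and 0.96, and the difference was 0.06 (standard error 0.20). *Acly*, which splits citrate into acetyl-CoA, was at 0.27 and 0.76 after sham operation and at 1.31 and 0.57 after injury. Injury replicate 1 alone lay above the sham libraries, and the difference of 0.42 became 0.06 without it. *Acss2*, which makes acetyl-CoA from acetate, went from 1.01 and 1.06 after sham operation to 0.79 and 0.67 after injury. Its groups did not overlap, with lower values after injury and a difference of -0.31 (adjusted p = 0.207 from limma).

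Among the elongases and desaturases, *Elovl6* (chromosome 3 of mm9, 129235304 to 129341413) was at 0.36 and 0.88 after sham operation and at 1.98 and 1.65 after injury. Even the lower injury library exceeded the higher sham library, and the difference of 1.19 (standard error 0.23, adjusted p = 0.0436 from limma) was the largest of the 36 genes. Leaving out sham replicate 1 or sham replicate 2 gave 0.94 or 1.45, and of the 4 omissions only that of injury replicate 2, with 1790 of all genes called, kept the call. Quantile normalization ended it too (adjusted p = 0.0605 from limma), and the adjusted p-value ran from 0.0292 to 0.213 over all alternatives. Of the other elongase genes among the 36, *Elovl5*, which acts on polyunsaturated chains, differed by -0.07, and *Elovl1*, which acts on very long saturated chains, differed by -0.24, both with overlapping groups. The *Elovl1* values were -0.18 and 0.18 after sham operation and -0.11 and -0.38 after injury. *Scd1*, the main delta-9 desaturase gene of adipose tissue, was at 0.48 and 0.40 after sham operation and at 0.66 and 1.32 after injury. Both injury libraries were higher, but they lay 0.66 apart, more than the difference of 0.55 between the groups (adjusted p = 0.197 from limma). *Scd2*, its neighbor and close relative on chromosome 19, between which reads can be shared, differed by 0.24 with overlapping groups, by 0.03 without injury replicate 1 and by 0.46 without injury replicate 2. *Fads1*, the delta-5 desaturase gene, differed by -0.07, and its sign turned without injury replicate 1.

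Triglyceride assembly starts from glycerol 3-phosphate, which *Gpd1* makes from a glycolytic intermediate. *Gpd1* was at 0.70 and 1.15 in the sham libraries and at 1.80 and 1.32 in the injury libraries, a difference of 0.64 (standard error 0.24, adjusted p = 0.150 from limma). The groups did not overlap, but the gap within each group was wider than the gap between sham replicate 2 and injury replicate 2. *Gpam*, which encodes the mitochondrial acyltransferase of the first acylation, was at 0.35 and 0.58 after sham operation and at -0.11 and -0.39 after injury. It was the lowest of the 36 genes, with a difference of -0.72 (standard error 0.17, adjusted p = 0.0628 from limma). *Dgat2*, one of the enzymes of the last acylation, was at 1.05 and 0.89 and then at 1.28 and 1.55, a difference of 0.44 without overlap (adjusted p = 0.145 from limma). *Dgat1*, which catalyses the same reaction, differed by 0.02 with a standard error of 0.15. *Agpat2* of the second acylation differed by 0.10, and *Lpin1*, the phosphatidate phosphatase gene, by 0.42 with a standard error of 0.30. The *Lpin1* difference came from injury replicate 2, at 1.21 against 0.42 in injury replicate 1, and was 0.03 without it.

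Of the regulators, *Thrsp* (Spot 14, a thyroid hormone-responsive promoter of lipogenesis) was at 0.30 and 0.38 after sham operation and at 1.05 and 0.88 after injury. The injury libraries were clearly separate from the sham libraries, yet the difference of 0.63 (standard error 0.14) just missed the threshold (adjusted p = 0.0596 from limma). *Mlxipl*, which encodes ChREBP, was at 0.33 and 0.18 and then at 0.59 and 0.65, a difference of 0.37 (adjusted p = 0.152 from limma). *Srebf1*, which encodes SREBP-1, differed by -0.14 (adjusted p = 0.561 from limma), and injury replicate 1 and sham replicate 1 were almost equal at 0.13. SREBP-1 is also regulated by cleavage of the protein, which these data do not measure.

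**Figure D2:**
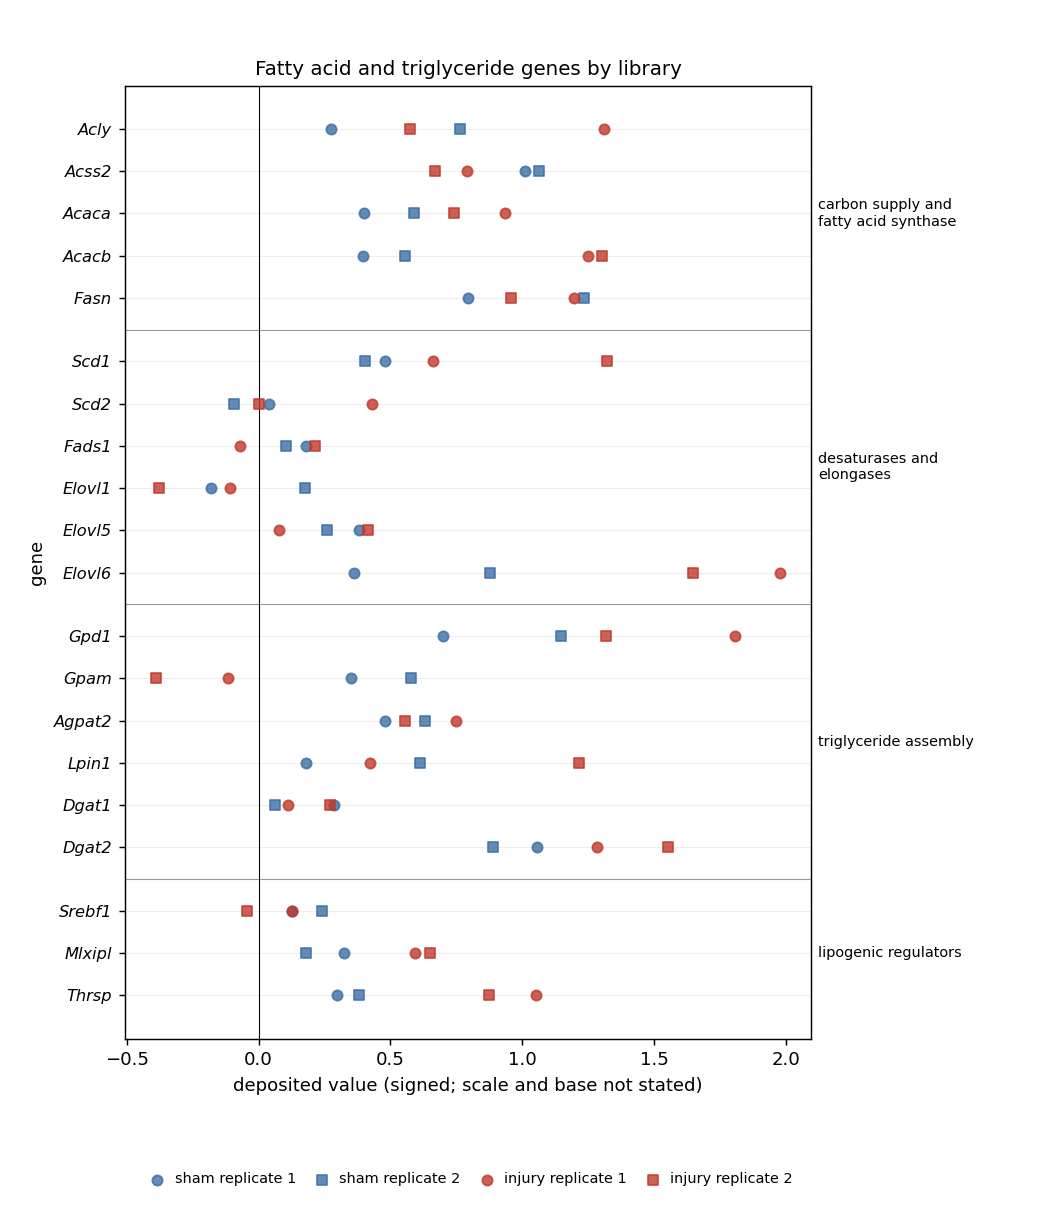
Deposited value of each of the 20 fatty acid and triglyceride genes in the 4 libraries, grouped by role; blue marks sham, red injury, circles replicate 1 and squares replicate 2. *Elovl6*, *Acacb* and *Thrsp* show red points apart to the right, *Gpam* and *Acss2* to the left, while the points of *Fasn*, *Agpat2* and *Dgat1* are mixed.

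None of the 16 sterol genes was called by limma in either direction, against 7.43% of all genes. Without adjustment, 5 of the 16 passed 0.05, 2 higher and 3 lower (31.2%, against 29.5% of all genes). Both injury libraries were above both sham libraries in 6 genes (37.5%, against 31.6%) and below them in 3 (18.8%, against 30.3%). In the mevalonate pathway, *Mvd*, the decarboxylase that yields isopentenyl diphosphate, was at -0.13 and -0.40 after sham operation and at 0.54 and -0.02 after injury. Injury replicate 2 was close to sham replicate 1, and the difference of 0.52 (standard error 0.23, adjusted p = 0.202 from limma) was 0.24 without injury replicate 1. The kinase genes *Mvk* and *Pmvk* differed by -0.09 and 0.15, and *Fdps*, which makes farnesyl diphosphate, by 0.03.

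For the steps from squalene to cholesterol, the mean was higher after injury in 7 of 9 genes and lower in 2 (higher in 6450 of all 12661), none of the 9 called by limma. *Fdft1*, which encodes squalene synthase, was at -0.25 and -0.17 after sham operation and at 0.29 and 0.67 after injury. The groups were separate, and the difference of 0.70 (standard error 0.17, adjusted p = 0.0711 from limma) was the highest of the sterol genes. Of its 2860 exonic bases in the mm9 annotation, 769 are shared with *Ctsb*, a lysosomal protease gene on the opposite strand, whose difference was 0.64. The library kit keeps strand, but whether the counting used it is not given in the sources used here. Without strand, the reads of these genes that fall in the shared bases cannot be told apart. *Acaca*, *Acss2*, *Elovl1*, *Agpat2* and *Srebf1* share shorter exonic stretches, of 16 to 229 bases with any one gene, with coding genes on the opposite strand. *Lss*, which encodes lanosterol synthase further down the pathway, went the other way, from 0.59 and 0.54 to 0.27 and 0.13, a difference of -0.37 (standard error 0.14, adjusted p = 0.150 from limma). *Cyp51*, the demethylase of lanosterol, was at -0.04 and -0.02 after sham operation and at 0.60 and 0.13 after injury, a difference of 0.40 that was 0.17 without injury replicate 1. *Nsdhl*, which removes the C4 methyl groups together with the product of *Msmo1*, was at 0.40 and 0.48 and then at 0.05 and -0.14. The injury values of *Nsdhl* were thus below both sham values, with a difference of -0.49 (standard error 0.14, adjusted p = 0.0967 from limma), while *Msmo1* differed by 0.22 (adjusted p = 0.414 from limma). *Sqle*, the epoxidase that acts before *Lss*, differed by 0.18 and its values overlapped. The late enzymes *Ebp*, *Sc5d* and *Dhcr7* differed by 0.05 to 0.14, also with overlap.

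In the regulatory group, *Insig1*, whose product holds SREBP in the endoplasmic reticulum and whose transcription is itself driven by SREBP, was at 0.85 and 0.61 after sham operation and at 1.11 and 1.54 after injury. Both injury libraries were higher, with a difference of 0.59 (standard error 0.20, adjusted p = 0.122 from limma) that was 0.38 without injury replicate 2. *Stard4*, a cytosolic sterol carrier gene, was at 0.49 and 0.46 and then at 0.04 and -0.30. It was the lowest sterol gene, with a difference of -0.60 (standard error 0.17, adjusted p = 0.0851 from limma). *Srebf2*, which encodes SREBP-2, had a difference of -0.05 (standard error 0.17).

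By the median, the injury libraries were further apart than the sham libraries in the genes of both pathways, but for the called genes *Elovl6* and *Acacb* and for others such as *Fasn* and *Fdps* the sham libraries were. The absolute gap between replicates had a median of 0.30 in the injury group and 0.08 in the sham group over the 16 sterol genes, while over the 20 fatty acid and triglyceride genes these medians were 0.27 and 0.16, and over all genes 0.19 and 0.15. Injury replicate 1 was the higher injury library in 12 of the 16 sterol genes, among them *Mvd*, *Sqle*, *Cyp51*, *Msmo1* and *Sc5d*. The same held for 12 of the 20 fatty acid and triglyceride genes and for 6194 of all 12661 genes. For *Fdft1*, *Insig1*, *Pmvk* and *Ebp* injury replicate 2 was the higher.

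**Figure D3:**
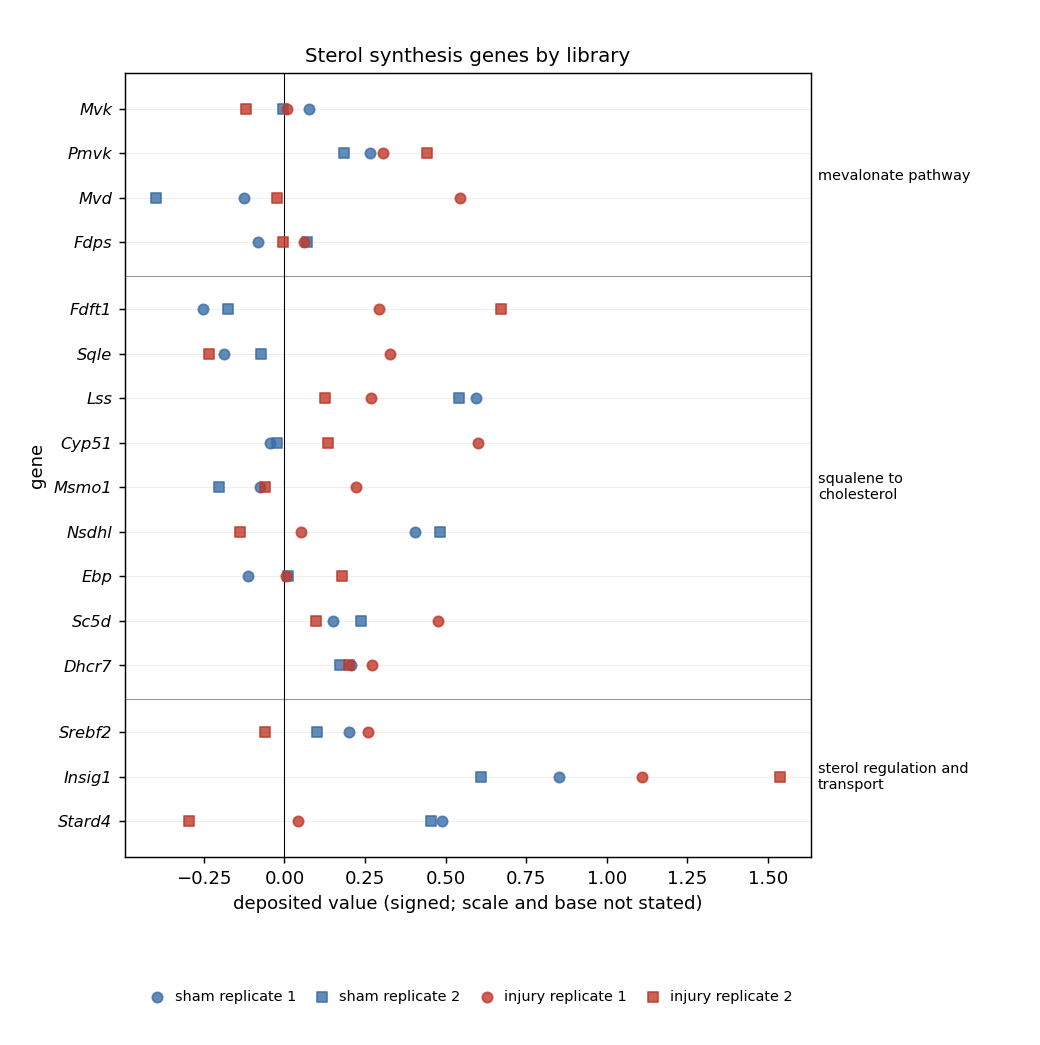
Deposited value of each of the 16 sterol genes in the 4 libraries, grouped by role; blue marks sham, red injury, circles replicate 1 and squares replicate 2. Red points lie to the right for *Fdft1*, *Cyp51* and *Insig1* and to the left for *Lss*, *Nsdhl* and *Stard4*, and the red points are often further apart than the blue ones.

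Pairs of enzymes were also set against each other within each library, since a constant added to all values of a library leaves such a gap as it is, although a change of the library's spread does not. The pairs were chosen after the values were seen, so the gaps are a description. *Gpam* was compared with *Agpat6*, which encodes a microsomal acyltransferase for the same first acylation and was at -0.22 and 0.06 after sham operation and at 0.58 and 0.77 after injury (difference 0.75, adjusted p = 0.0558 from limma). *Agpat6* minus *Gpam* was -0.58 and -0.51 in the sham libraries and 0.69 and 1.16 in the injury libraries. The gap was thus 1.47 higher on average after injury, while its sign has no meaning of its own because the zero of each gene is not stated. *Acacb* minus *Acaca* went from -0.01 and -0.03 to 0.31 and 0.56, and *Dgat2* minus *Dgat1* from 0.77 and 0.83 to 1.17 and 1.28. In both pairs the sham libraries were close together and the injury libraries stood above them. *Scd1* minus *Scd2* was 0.44 and 0.50 after sham operation and 0.23 and 1.32 after injury, so the injury libraries enclosed the sham libraries. Among the sterol genes, *Fdft1* minus *Lss* went from -0.85 and -0.71 to 0.03 and 0.55, and *Cyp51* minus *Nsdhl* from -0.45 and -0.50 to 0.55 and 0.27. *Insig1* minus *Stard4* went from 0.37 and 0.15 to 1.07 and 1.83. *Elovl6* minus *Fasn*, which sets chain elongation against palmitate synthesis, was -0.43 and -0.36 after sham operation and 0.78 and 0.69 after injury.

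**Figure D4:**
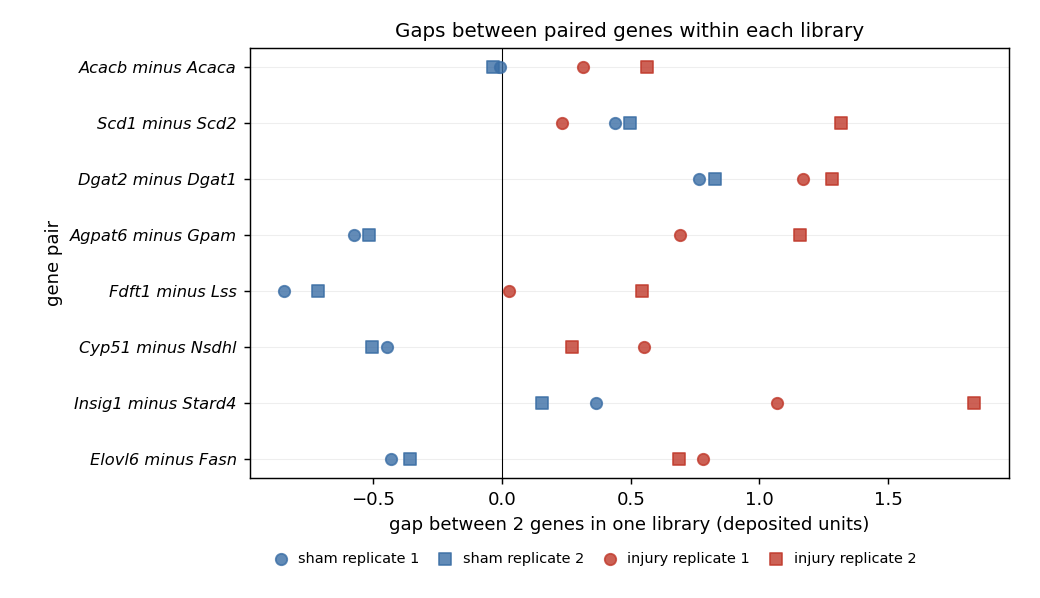
Gap between the deposited values of 2 genes within each library, for 8 pairs chosen after the values were seen; blue marks sham, red injury, circles replicate 1 and squares replicate 2. In 7 pairs both red points lie to the right of both blue points, from -0.58 and -0.51 to 0.69 and 1.16 for *Agpat6* minus *Gpam*, and in *Scd1* minus *Scd2* they do not.

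A wider list of lipid synthesis genes outside the 36, drawn up with these pathways in mind, had 39 of 48 genes analysed. Of these, 2 were called higher and 1 lower, near the 3.76% and 3.67% of all genes, and the median difference was 0.10. Both injury libraries lay above both sham libraries in 19 of the 39 (48.7%, against 31.6% of all genes) and below them in 7 (17.9%, against 30.3%). *Soat1*, which esterifies cholesterol for storage, was at -0.86 and -0.85 after sham operation and at 1.04 and 0.55 after injury (difference 1.65, standard error 0.20, adjusted p = 0.0285 from limma). *Soat1* is known to be abundant in macrophages. *Pnpla3*, a lipid droplet gene that SREBP-1 and ChREBP are known to drive, was at -0.19 and 0.21 and then at 1.38 and 1.06 (difference 1.21, standard error 0.20, adjusted p = 0.0345 from limma). *Elovl7*, an elongase of saturated chains, fell from 0.63 and 0.49 to -0.96 and -0.56 (difference -1.32, standard error 0.18, adjusted p = 0.0291 from limma), the opposite direction to *Elovl6*. The sham values of *Soat1* were almost equal, and the groups of all 3 genes were separate. Without either sham library, where 0 and 1 of all genes were called, these calls were lost too (adjusted p = 0.113 to 0.197 from limma), and that of *Pnpla3* was also lost without injury replicate 1 (adjusted p = 0.0787 from limma). Without sham replicate 1 and sham replicate 2 the differences were 1.64 and 1.65 for *Soat1*, -1.25 and -1.39 for *Elovl7* and 1.01 and 1.41 for *Pnpla3*.

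In bulk tissue, fewer cells of a type and less RNA per cell cannot be told apart, and markers of several cell types differed between these groups. Over all genes, 30.3% lay below both sham libraries in both injury libraries and 31.6% above, while 3.67% were called lower and 3.76% higher by limma. The list of 13 adipocyte markers includes *Retn* and *Cfd*, which the paper used as markers of white fat. Of these 13 markers, 7 lay below sham and 1 above, with 1 called lower and differences from -0.94 to 0.65. Their mean value was 0.23 and 0.33 after sham operation and -0.24 and 0.21 after injury, a mean over markers that went both ways. Of 10 brown adipocyte markers analysed, 9 lay above sham and 6 were called higher, with means of 0.58 and 1.07 and then of 2.13 and 1.89. All 9 macrophage markers analysed lay above sham and 5 were called higher, with means of -1.26 and -1.08 and then of 0.63 and -0.04. Of 9 Schwann cell and myelin markers, a cell type with high sterol synthesis, 6 lay below sham, of which 2 were called lower, and 2 above, with means of 0.30 and 0.11 and then of -0.58 and -0.21. All 5 neutrophil markers analysed lay above sham and 1 was called higher, with means of -1.42 and -0.99 and then of 1.40 and 0.14. All 6 smooth muscle markers lay below sham, 4 of them called lower by limma, with a median difference of -2.15. Of 6 endothelial markers 5 lay below sham, with 2 called lower, and of 7 skeletal muscle markers 5 lay below and 1 above, with 0 called. The 1 epithelial marker analysed of 9 lay below sham and was not called. The part of these cell types in the lipid synthesis values was not tested. The values do not show abundance, so whether a marker was near absence in a library is unknown.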

How the data were processed

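For RNA-seq, the authors prepared 2 libraries per group with a strand-keeping kit for polyadenylated RNA (input 480 ng). Per the submitters' processing notes and the methods, reads were processed with FastQC 0.11.8, cutadapt 1.18 and Trimmomatic 0.39, aligned to mm9 with STAR 2.6.0a, counted with featureCounts and tested with DESeq2 1.28.0 in R 3.6.0. The values the authors deposited are a signed score per gene and library (-2.27 to 6.45, 50.5% below 0, column medians within 0.01 of 0) and not counts. How they were made from counts is not given in the sources used here, so depth and abundance are unknown and no filter was applied.

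Injury was compared with sham by limma 3.58.1 in R 4.3.3 (lmFit and eBayes without trend, all 4 libraries, group as the only term) with Benjamini-Hochberg adjustment over 12661 genes and a threshold of 0.05. The 3.48 prior and 2 residual degrees of freedom mean that the p-values rest on variance shared between genes. An exact permutation test of 2 libraries against 2 cannot go below 0.333. The members and lists were chosen with earlier results of these data known. All genes of the list found in the table are named. Values in every library were to be given for called genes and the 3 highest and 3 lowest of each pathway, and others were added after their values were seen. Of the wider list, called genes are named, and *Agpat6* was named after its values were seen. Positions are from GENCODE M1 for mm9, and promoters from RefSeq on GRCm38.p6, with no conversion between the builds. Alternatives were a replicate block, each library left out, a robust variance prior, quantile normalization, a common spread for all columns, a threshold of 0.1, and sets of identical rows reduced to 1 row. Python 3.11.15, pandas 2.3.3, numpy 2.4.6 and matplotlib 3.10.9 were used.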

Additional observations from a re-analysis of the deposited data

How the results depend on the processing

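The 2 calls among the 36 genes became 0 with quantile normalization of the columns (1061 of all genes called, against 941) and 0 with the replicate block (684 of all genes), and stayed at 2 with a robust variance prior, a common spread for all columns or identical rows counted once. Over the 4 omissions of a library, 0 to 2 of the 36 genes were called higher, and 0 to 5 of the wider list were called higher and 0 to 3 lower. Of all 12661 genes, 0 and 1 were called without sham replicate 1 and sham replicate 2, and 284 and 1790 without injury replicate 1 and injury replicate 2. With a threshold of 0.1, 4 of the 36 genes were called higher and 3 lower, and 4 of the wider list higher. The replicate block left 1 gene of the wider list called higher. The replicate numbers are not stated to pair the libraries, and the gaps between replicates 1 and 2 in the sham and injury groups correlated at -0.09 across genes, so the block is given only here.

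With a library left out, the median difference was 0.0759 to 0.19 for the 36 genes, 0.10 to 0.29 for the fatty acid and triglyceride genes, 0.00544 to 0.12 for the sterol genes and 0.0766 to 0.19 for the wider list. The lowest medians of the 36 genes and of both pathways came without injury replicate 1, and the cause was not tested. Among uncalled genes that kept their sign, the difference was 0.22 to 0.88 for *Scd1*, 0.40 to 0.88 for *Gpd1*, -0.42 to -0.07 for *Elovl1* and 0.08 to 0.36 for *Msmo1*. The range was -0.23 to -0.06 for *Srebf1*, -0.15 to -0.03 for *Mvk* and 0.08 to 0.22 for *Pmvk*. For *Ebp* it was 0.06 to 0.23 and for *Dhcr7* 0.01 to 0.08. Other uncalled differences near 0 changed sign with the library left out. They ran from -0.16 to 0.28 for *Fasn*, -0.21 to 0.0728 for *Fads1*, -0.24 to 0.10 for *Elovl5*, -0.000787 to 0.20 for *Agpat2*, -0.10 to 0.13 for *Dgat1*, -0.0439 to 0.11 for *Fdps*, -0.10 to 0.46 for *Sqle*, -0.10 to 0.28 for *Sc5d* and -0.21 to 0.11 for *Srebf2*. *Fasn* was at -0.0723 with quantile normalization. Over the 40 named genes and the fits to all 4 libraries, no other direction changed. An omission that leaves 1 library in a group assumes that it varies like the other group.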
